A study of Mus musculus with 5 samples.

Results

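The 10 immediate early genes Fos, Fosb, Jun, Junb, Egr1, Atf3, Ier2, Ier3, Zfp36 and Dusp1 were taken by name from a table of 23857 genes, and all 10 were found and tested. RNA was measured by bulk sequencing in YFP-positive stromal cells sorted from the fallopian tubes (oviducts) of 5 young adult female mice, with 1 library per mouse. Mice 2 and 3 of the control group carried Pdgfra-Cre and the Rosa26-YFP (R26Y) reporter, with wild-type Esr1. Mice 1, 2 and 3 of the conditional knockout group carried Pdgfra-Cre, the R26Y reporter and Esr1(fl/fl), that is, floxed copies of the gene that encodes estrogen receptor alpha. Cre recombinase is made here under the control of Pdgfra, which marks mesenchymal cells, so that every cell whose lineage has expressed it can be YFP-positive. The comparison asks which genes differ in oviduct stroma when Esr1 is deleted there.

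Immediate early genes are transcribed within minutes of a stimulus, without the need for new protein. Growth factors, calcium and stress act through MAP kinases on transcription factors that are already bound to their promoters, such as serum response factor with its ELK partners and CREB. Most of the transcripts are short-lived, and several of the products shut the response down again. Estrogen is known to induce Fos in the uterus, and the same genes are also known to be induced by enzymatic dissociation of tissue.

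Values are TPM, transcript abundances that are scaled for transcript length and to the same total in each library and do not record how many reads lie behind them. Between 15841 and 19432 genes reached 1 TPM per library. The level of Esr1 itself did not follow the labels: it was at 83.3 and 77.6 TPM in control mice 2 and 3, against 28.9, 85.0 and 169.9 TPM in the knockout-labelled libraries 1, 2 and 3. A value per gene does not show loss of a floxed exon, so these levels do not tell whether Esr1 was deleted. All directions below therefore refer to libraries by their labels. The library labelled knockout 1 stood apart from the other 2 of its group. With it, 2 genes were higher and 3 lower of 19292 at an adjusted p of 0.05 (limma). Leaving it out gave 1022 higher and 502 lower of 19106. The fit without it is quoted below because of this outcome, which was seen first. Its adjusted p values are therefore descriptive and not those of a comparison fixed beforehand. Pdgfra was at 225 and 188 TPM in the controls, against 298, 231 and 165 TPM in the knockout-labelled libraries 1, 2 and 3. Of 10 stromal markers, none was at 0 in every library, and their summed level was 20638 to 25747 TPM in controls and 13496 to 17657 TPM in the knockout-labelled libraries.

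RefSeq promoters of GRCm38.p6, the assembly that mm10 denotes, were matched for 8 of the 10 genes. Egr1 and Ier2 had no match, so their promoters were not searched. The sequences of Fos, Atf3, Dusp1 and Zfp36 are shown. Fos is the founding example of an immediate early gene, and Atf3 and Dusp1 differed most from controls. Zfp36 held the only serum response element found in the 8 windows, which does not speak to sequence beyond 250 bases. Each is the stretch of 250 bases before the annotated start, read 5′ to 3′ on the gene's strand. Capitals mark TGACG on either strand (the core of a cAMP response element), the TATA box TATAAA and the serum response element.
Fos, chr12:85473640-85473889, + strand: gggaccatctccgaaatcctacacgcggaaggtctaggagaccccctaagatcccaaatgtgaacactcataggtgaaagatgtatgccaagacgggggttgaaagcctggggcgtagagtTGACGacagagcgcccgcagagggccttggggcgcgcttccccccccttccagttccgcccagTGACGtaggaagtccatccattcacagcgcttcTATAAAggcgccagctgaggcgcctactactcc
Atf3, chr1:191183334-191183583, - strand: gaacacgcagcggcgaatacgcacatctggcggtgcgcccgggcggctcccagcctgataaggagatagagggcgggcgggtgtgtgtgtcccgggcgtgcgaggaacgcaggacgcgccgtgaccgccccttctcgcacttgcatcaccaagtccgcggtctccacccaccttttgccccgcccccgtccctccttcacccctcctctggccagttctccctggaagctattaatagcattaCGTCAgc
Dusp1, chr17:26508473-26508722, - strand: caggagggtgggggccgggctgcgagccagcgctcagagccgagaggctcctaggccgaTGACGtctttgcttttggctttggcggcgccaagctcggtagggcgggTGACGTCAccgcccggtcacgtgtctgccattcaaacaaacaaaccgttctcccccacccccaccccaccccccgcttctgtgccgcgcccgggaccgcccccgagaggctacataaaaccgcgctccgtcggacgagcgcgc
Zfp36, chr7:28379229-28379478, - strand: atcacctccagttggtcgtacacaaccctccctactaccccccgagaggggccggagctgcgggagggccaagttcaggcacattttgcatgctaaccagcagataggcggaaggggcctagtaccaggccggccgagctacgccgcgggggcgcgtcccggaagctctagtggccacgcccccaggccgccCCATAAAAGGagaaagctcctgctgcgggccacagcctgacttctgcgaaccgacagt

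TGACG was found in 5 of the 8 promoters, Fos, Fosb, Junb, Atf3 and Dusp1, against 17.8% of 32851 RefSeq promoter windows cut to the same 250 bases. The full element TGACGTCA, which contains TGACG on both strands, was present in Dusp1 alone among them, 143 to 136 bases before the start, and in 1.55% of all windows. The Fos promoter held TGACG at 2 places and TATAAA from 33 to 28 bases before the start, and TATAAA was in 12.4% of all windows. The serum response element of Zfp36 lay 58 to 49 bases before the start and occurred in 1.47% of all windows. No window of the 8 held the AP-1 site TGANTCA (6.75% of all) or the palindromic estrogen response element (0.064% of all). The GC box GGGCGG was in 7 of the 8 and in 32.7% of all windows, and the NF-kB site in 3 of the 8, Fos, Fosb and Ier3, and in 3.90% of all windows. These are matches of letters in a short window and not measured binding.

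All 10 genes were strongly expressed in every library. Egr1 had the highest level, with a mean of 1688 ± 456 TPM over the 5 libraries (SD, n = 5), and ranked between 39th and 106th of all listed genes. Fos followed at 1451 ± 341 TPM (SD, n = 5) and Jun at 749.6 ± 193 TPM (SD, n = 5), and the order of Egr1 above Fos, Fos above Jun and Jun above Junb held in 5 of 5 libraries. Junb, Zfp36, Fosb and Dusp1 did not differ beyond their spread, with means between 558 and 568 TPM. Atf3, at 325 ± 121 TPM (SD, n = 5), was below Dusp1 in all 5 libraries. Ier3 and Ier2 were the lowest, at 219 ± 30.8 and 186 ± 42.5 TPM (SD, n = 5), and their order held in 4 of 5 libraries. The plot of TPM by gene and library shows these levels.

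**Figure D1:**
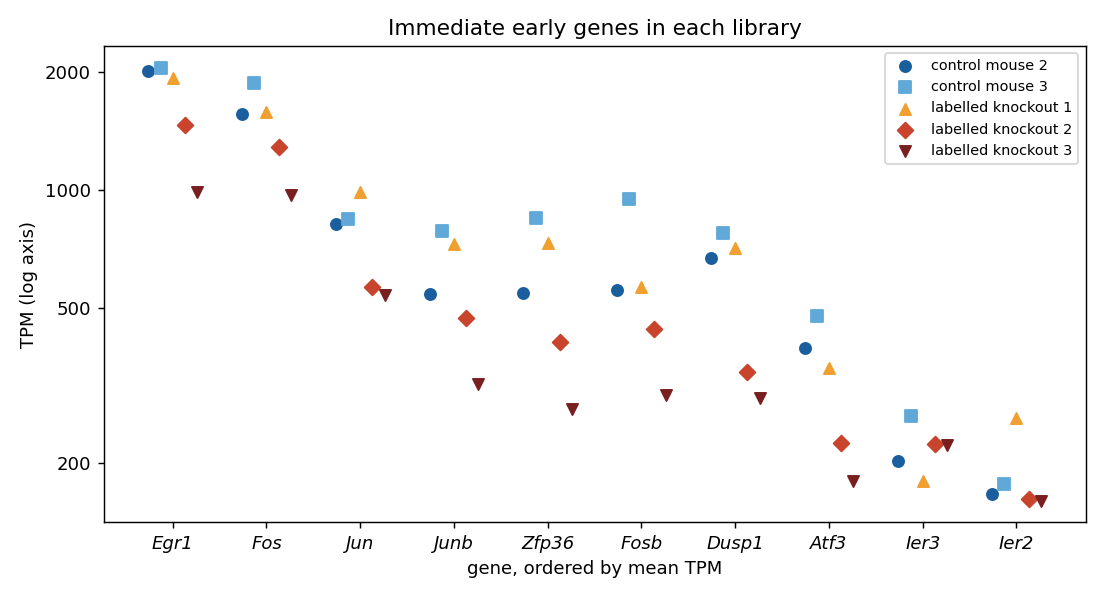
TPM on a log axis for each of the 10 genes, ordered by mean level, with 1 symbol per library. For all genes but Ier3 the knockout-labelled libraries 2 and 3 are the 2 lowest points, and for Ier2 they lie close to control mouse 2.

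In the comparison of labelled groups, none of the 10 genes passed an adjusted p of 0.05 (limma), where 0.0259% of the 19292 tested genes did. Only Atf3 had an unadjusted p under 0.05, and that was lower, as it was for 9.87% of all tested genes. In 9 of 10 genes the fitted difference was below 0, and the median log2 fold change was -0.49. Over all tested genes the median was -0.02 and 52.2% were below 0. Of 1232 tested genes with a mean of at least 100 TPM, as all 10 genes had, 415 were below 0, with a median of 0.14. Without the library labelled knockout 1, Dusp1 and Atf3 passed an adjusted p of 0.05 and were lower, 2 of 10 where 2.63% of all 19106 tested genes were called lower, and the median log2 fold change was -0.75 against 0.03 over all. An unadjusted p under 0.05 was then reached by 8 of the 10, all lower, and by 11.6% of all tested genes in that direction. In 9 of the 10, all but Ier3, both remaining knockout-labelled libraries lay below both controls, as they did for 27.9% of all tested genes. Esr1 was not lower in these 2 libraries, at 85.0 and 169.9 TPM against 83.3 and 77.6 TPM in the controls. The library left out was the one with low Esr1, at 28.9 TPM. The summed TPM of the 10 genes was 7457 and 9024 in control mice 2 and 3 and 8021, 5581 and 4245 in the knockout-labelled libraries 1, 2 and 3. The library labelled knockout 1 thus lay between the controls, and the other 2 lay below both.

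Fos and Fosb encode partners of the AP-1 transcription factor, which pair with a JUN protein through a leucine zipper. Fos was at 1556 and 1868 TPM in control mice 2 and 3, against 1581, 1282 and 967 TPM in the knockout-labelled libraries 1, 2 and 3. The library labelled knockout 1 fell between the controls, and the groups overlapped. The log2 fold change of Fos was -0.45 ± 0.27 (SE, limma, adjusted p 0.488), and leaving out the library labelled knockout 1 gave -0.61 (adjusted p 0.125). Fosb was at 553 and 946 TPM in the controls, against 564, 439.5 and 298 TPM in the knockout-labelled libraries 1, 2 and 3. The controls differed from each other 1.71-fold in Fosb, more than in any other of the 10 genes. Its log2 fold change was -0.78 ± 0.34 (SE, limma, adjusted p 0.375), and -0.996 without the library labelled knockout 1 (adjusted p 0.0951). Leaving out each library in turn gave Fosb values from -1.17 without control mouse 2 to -0.40 without control mouse 3.

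Jun and Junb encode the JUN side of AP-1, and JUNB is the weaker activator of the pair. Jun was at 818 and 842 TPM in the controls, against 986, 563 and 539 TPM in the knockout-labelled libraries 1, 2 and 3. Its controls were close together, the library labelled knockout 1 lay above both, and the other 2 lay below both. Its log2 fold change was -0.31 ± 0.30 (SE, limma, adjusted p 0.631), and -0.59 without the library labelled knockout 1 (adjusted p 0.0520). Junb was at 543 and 782 TPM in the controls, against 725, 469.6 and 319.9 TPM in the knockout-labelled libraries 1, 2 and 3. The groups overlapped through the library labelled knockout 1, and the log2 fold change was -0.45 ± 0.36 (SE, limma, adjusted p 0.572). Without that library Junb was at -0.75 (adjusted p 0.119), and leaving out each of the 5 libraries in turn gave -0.75 to -0.16, the upper end without the library labelled knockout 3; without control mouse 3 it was -0.18. Prdx2 on the other strand shares 173 of the 2301 exon bases of Junb in GENCODE M21, and whether the counting used strand is not given in the sources used here, so a small part of the Junb value is uncertain. Prdx2 ran the other way, at 118 to 131 TPM in controls and 134 to 239.6 TPM in the knockout-labelled libraries.

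Atf3, a stress-induced ATF/CREB family factor that can pair with JUN proteins, was at 394 and 475 TPM in the controls. In the knockout-labelled libraries 1, 2 and 3 it was at 351, 225 and 180.2 TPM. All 3 lay below both controls, which held for Atf3 and Egr1 only among the 10 genes, and for 21.9% of all tested genes. The log2 fold change was -0.83 ± 0.29 (SE, limma, adjusted p 0.321). Without the library labelled knockout 1 it was -1.10 ± 0.17 (SE, limma, adjusted p 0.0246), a control mean of 2.14 times the mean of the knockout-labelled libraries 2 and 3.

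Egr1, a zinc finger factor that is a standard readout of MAP kinase and serum response factor activity, was at 2008 and 2049 TPM in the controls. In the knockout-labelled libraries 1, 2 and 3 it was at 1932, 1464 and 988 TPM. The controls were nearly equal, the library labelled knockout 1 lay just below them, and the other 2 lay far lower and apart from each other. The log2 fold change was -0.53 ± 0.32 (SE, limma, adjusted p 0.480), and -0.75 without the library labelled knockout 1 (adjusted p 0.0994).

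Ier2 and Ier3 had the smallest fitted differences of the 10 genes. Ier2, a nuclear immediate early protein, was at 167 and 178 TPM in the controls, against 261, 162 and 161 TPM in the knockout-labelled libraries 1, 2 and 3. Its knockout-labelled libraries 2 and 3 lay within 10 TPM of control mouse 2, and only the library labelled knockout 1 stood out. Ier3, a stress-inducible regulator of cell survival, was at 203 and 264 TPM in the controls, against 180.2, 224 and 223 TPM in the knockout-labelled libraries 1, 2 and 3. The last 2 fell between the controls. The log2 fold changes were 0.14 for Ier2 and -0.15 for Ier3, each smaller than its standard error of 0.25 and 0.20 (limma, adjusted p 0.805 and 0.723). Without the library labelled knockout 1 both were close to 0, at -0.09 and -0.05.

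Zfp36 and Dusp1 encode feedback inhibitors. ZFP36 (tristetraprolin) binds AU-rich elements in short-lived transcripts and leads to their decay. Zfp36 was at 545 and 845 TPM in the controls, against 731, 408 and 275 TPM in the knockout-labelled libraries 1, 2 and 3. The library labelled knockout 1 lay between controls that differed 1.55-fold, and the log2 fold change was -0.64 ± 0.42 (SE, limma, adjusted p 0.504). Without that library it was -1.02 and did not pass (adjusted p 0.0748).

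DUSP1 is a phosphatase that inactivates MAP kinases. Dusp1 was at 671 and 776 TPM in the controls, against 709.6, 342 and 293 TPM in the knockout-labelled libraries 1, 2 and 3. The library labelled knockout 1 lay between the controls, and the other 2 were below them by a wide margin. The log2 fold change was -0.80 ± 0.38 (SE, limma, adjusted p 0.399). Without the library labelled knockout 1 it was -1.18 ± 0.15 (SE, limma, adjusted p 0.0173), the largest difference among the 10 genes in that fit, where the control mean was 2.28 times the mean of the other 2 libraries. Ergic1 on the other strand shares 11 of the 3311 exon bases of Dusp1.

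**Figure D2:**
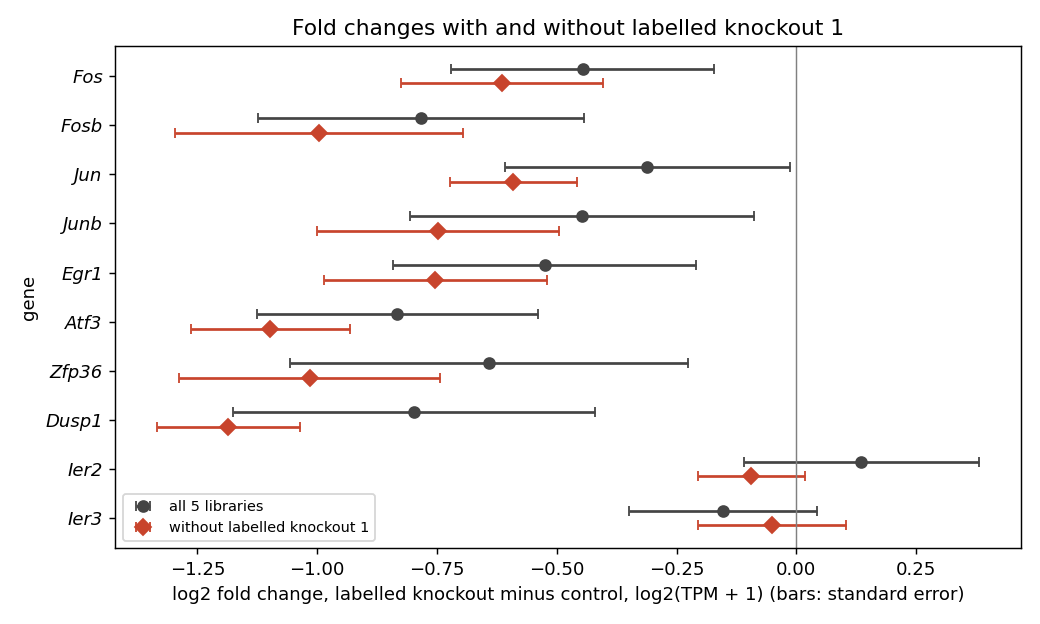
Log2 fold change on the log2(TPM + 1) scale, labelled knockout minus control, for each gene, with standard errors, in the fit to all 5 libraries and in the fit without the library labelled knockout 1. For 8 genes the value moved away from 0 when that library was left out, to between -0.59 and -1.18, and Ier2 and Ier3 lay near 0 in both fits.

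In each library 8 of the 10 genes, all but Ier2 and Ier3, lay on the same side of their own mean. Ier2 and Ier3 were set apart because they broke this pattern, and its share over all genes was not counted. In control mouse 2 the 8 genes lay above their means by 0.005 for Junb to 0.37 for Dusp1 on the log2 scale. Relative to each gene's own mean over the 5 libraries, the mean log2 level of the 10 was 0.13 and 0.45 in control mice 2 and 3. It was 0.28, -0.26 and -0.59 in the knockout-labelled libraries 1, 2 and 3. Control mouse 3 held the highest value of 8 genes, and the library labelled knockout 3 the lowest value of 9. Within each labelled group the genes spread as well: the knockout-labelled libraries differed among themselves with an SD on the log2 scale of 0.36 for Fos, 0.71 for Zfp36 and 0.68 for Dusp1, and the controls with one of 0.02 for Egr1 and 0.55 for Fosb. Over the 5 libraries the median SD of the 10 genes on the log2 scale was 0.48. It was 0.31 over all tested genes and 0.27 over the 1232 with a mean of at least 100 TPM.

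Ratios between genes within a library were steadier than the levels for some pairs. Fos stood to Egr1 at 0.775 and 0.912 in control mice 2 and 3 and at 0.818, 0.876 and 0.979 in the knockout-labelled libraries 1, 2 and 3, the narrowest ratio of the 45 pairs by its SD on the log2 scale of 0.13. Junb to Zfp36 followed, between 0.925 and 1.16, and then Atf3 to Dusp1, between 0.495 and 0.659. Fos was 1.98 to 3.24 times Fosb, and Jun was 1.08 to 1.68 times Junb. The ratio of Ier3 to Zfp36 spanned the widest range, 0.247 to 0.808, and that of Ier3 to Dusp1, between 0.254 and 0.758, had the largest SD on the log2 scale. In 28 of the 45 pairs the ratio had a lower SD than either gene alone. The 45 pairs reuse the same 10 genes, so they are not independent, and pairs of other genes were not counted. Genes of 1 library share its depth and scaling, so these ratios are a description of 5 libraries.

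**Figure D3:**
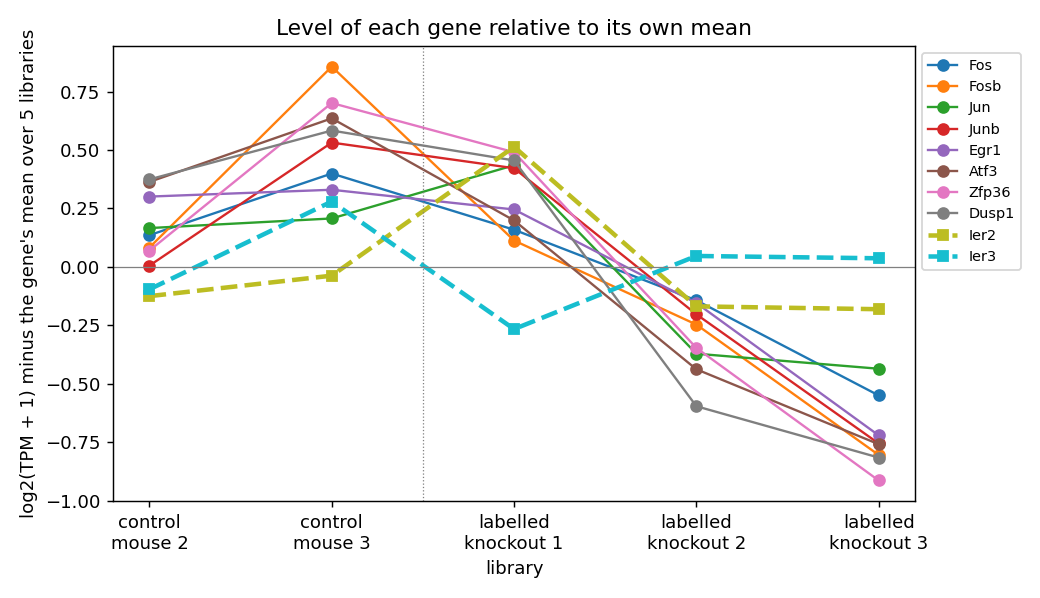
Log2(TPM + 1) of each gene minus its own mean over the 5 libraries, with solid lines for 8 genes and dashed lines for Ier2 and Ier3, and the mice of a group in label order, which carries no meaning. The solid lines lie above 0 in both controls and the library labelled knockout 1 and below 0 in the knockout-labelled libraries 2 and 3.

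The genes nearest to the mean profile of the 10 were sought among 12596 other tested genes with a mean of at least 5 TPM, by the mean absolute difference of centred log2 values over the 5 libraries. They were Nfatc2, Efhd2, Siglece, Ier5 and Plxnd1, with differences of 0.059, 0.065, 0.071, 0.072 and 0.073. Ier5, another immediate early gene, was at 75.9 and 89.7 TPM in the controls, against 81.7, 55.1 and 51.7 TPM in the knockout-labelled libraries 1, 2 and 3. Of the 10 genes themselves Fos was nearest to their mean profile, at 0.067, and Ier3 farthest, at 0.37. Among the other genes, 2 lay nearer to that profile than Fos, 680 nearer than Dusp1 and 3571 nearer than Ier3. The profile was thus not particular to the 10 genes. Siglece encodes a lectin of myeloid cells.

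Genes around the 10 in the same response were taken from 9 lists with 185 genes, of which 183 were tested. None passed an adjusted p of 0.05 (limma), while 48 were lower and 6 higher at an unadjusted p under 0.05, against 9.87% and 3.7% of all tested genes. Without the library labelled knockout 1, 41 were called lower and 6 higher at an adjusted p of 0.05, against 2.63% and 5.35% of all tested genes. The genes named below were picked by size among those whose groups did not overlap.

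In the list of the MAPK cascade, CREB and serum response factor regulators, 10 of 32 genes were below 0 and 22 above, with a median log2 fold change of 0.11, and none had an unadjusted p under 0.05. Elk1, a partner of serum response factor, was at 12.2 and 12.6 TPM in the controls, against 12.8 to 14.9 TPM in the knockout-labelled libraries (limma, adjusted p 0.649). Without the library labelled knockout 1, 1 gene of the list was called higher and none lower. It was Map2k4, a kinase that activates JNK, named after its values were seen. Map2k4 was at 34.1 and 30.1 TPM in the controls, against 31.2, 57.7 and 74.6 TPM in the knockout-labelled libraries 1, 2 and 3. Its log2 fold change was 0.66 (limma, adjusted p 0.433), and 1.01 without the first of these (adjusted p 0.0281).

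Among the other AP-1 and ATF/CREB factors, 16 of 22 were below 0, with a median log2 fold change of -0.36, and without the library labelled knockout 1 5 were called lower and 1 higher. Fosl1, a FOS-related AP-1 protein, was at 8.78 and 11.5 TPM in the controls, against 3.86, 3.18 and 2.23 TPM in the knockout-labelled libraries 1, 2 and 3 (log2 fold change -1.45, standard error 0.27, limma adjusted p 0.153). Batf, an AP-1 factor best known from lymphocytes, was at 19.4 and 21.0 TPM in the controls, against 7.13, 9.15 and 5.50 TPM in the others (log2 fold change -1.38, standard error 0.24, limma adjusted p 0.133). Both lay below the controls in the library labelled knockout 1 as well, but their naming required this. Fos and Fosb faced no such condition, so the 2 pairs cannot be compared on it. Fosl2 and Jund, named after their values were seen, complete the FOS and JUN families. Fosl2 measured 165 ± 25.0 TPM (SD, n = 2) in the controls, against 85.9 ± 2.64 TPM in the knockout-labelled libraries (SD, n = 3; log2 fold change -0.92, limma adjusted p 0.139), with all 3 below both controls. Jund, which is expressed constitutively in most cells, measured 214 ± 0.879 TPM (SD, n = 2), against 212 ± 26.8 TPM (SD, n = 3). Its log2 fold change was -0.02, a value whose sign changed with the scaling.

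In the list of other EGR, NR4A, KLF and early transcription factors, 20 of 26 were below 0, with a median log2 fold change of -0.41. Nr4a2, an orphan nuclear receptor, was at 35.1 and 51.3 TPM in the controls, against 20.8, 17.8 and 11.7 TPM in the knockout-labelled libraries 1, 2 and 3 (log2 fold change -1.33, limma adjusted p 0.187). Nr4a3 was at 51.1 and 74.1 TPM in the controls, against 30.9, 29.0 and 12.5 TPM in the others (log2 fold change -1.42, limma adjusted p 0.235). Nr4a1, Egr2 and Egr3 were named after their values were seen. Nr4a1 was at 383 and 497 TPM in the controls, against 413, 223 and 158 TPM in the knockout-labelled libraries 1, 2 and 3, so it overlapped through the first. Egr2 and Egr3, the paralogs of Egr1, were at 44.3 ± 6.40 and 18.0 ± 5.15 TPM (SD, n = 2) in controls, against 30.5 ± 3.44 and 12.0 ± 2.41 TPM in the knockout-labelled libraries (SD, n = 3), with adjusted p of 0.322 and 0.413 (limma).

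The relatives of Dusp1 and Zfp36 in the feedback arm were mixed. Of 11 other dual-specificity phosphatases 7 were below 0, with a median log2 fold change of -0.20, and none was called with or without the library labelled knockout 1. Dusp5, a MAP kinase phosphatase of the nucleus, was at 57.2 and 74.3 TPM in the controls, against 32.1, 42.9 and 36.9 TPM in the knockout-labelled libraries 1, 2 and 3 (log2 fold change -0.80, limma adjusted p 0.206). Dusp4 was at 7.97 and 11.3 TPM in the controls, against 4.36 to 7.35 TPM in the others (limma, adjusted p 0.434). Of 14 tested genes of AU-rich element binding and RNA decay 3 were below 0 and 11 above, with a median of 0.15. Zc3h12a, the RNase regnase-1, was at 14.8 and 17.3 TPM in the controls, against 9.47, 7.17 and 5.83 TPM in the knockout-labelled libraries 1, 2 and 3 (log2 fold change -1.03, limma adjusted p 0.198). Cnot7, a deadenylase, was at 31.2 and 35.6 TPM in the controls, against 39.3, 50.3 and 54.5 TPM in the others (log2 fold change 0.50, limma adjusted p 0.345).

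Of 30 other early genes and feedback regulators 23 were below 0, with a median log2 fold change of -0.42. Pim1, a survival kinase, was at 74.4 and 97.9 TPM in the controls, against 56.7, 41.2 and 29.3 TPM in the knockout-labelled libraries 1, 2 and 3 (log2 fold change -1.04, limma adjusted p 0.230). Rgs2, an inhibitor of G protein signalling, ran the other way, at 63.1 and 68.3 TPM in the controls, against 155, 150.2 and 99.7 TPM in the others (log2 fold change 1.00, limma adjusted p 0.192). Rgs2 was above both controls in all 3 libraries labelled knockout, and its naming required that the groups not overlap.

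Secreted and surface products of the response had the lowest median of the 9 lists, -0.87, with 16 of 19 tested genes below 0. Cxcl2, a neutrophil chemokine, was at 126 and 245 TPM in the controls, against 28.5, 26.6 and 21.5 TPM in the knockout-labelled libraries 1, 2 and 3 (log2 fold change -2.74, standard error 0.29, limma adjusted p 0.067). Ccl2, a monocyte chemokine, was at 50.3 and 82.0 TPM in the controls, against 45.5, 11.0 and 10.8 TPM in the others (log2 fold change -1.80, limma adjusted p 0.303). Cxcl2 was low in every library labelled knockout, whereas Ccl2 was near control mouse 2 in the first of them. Without that library both passed (log2 fold change -2.82 and -2.45, limma adjusted p 0.0140 for each).

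NF-kB feedback genes were below 0 in 13 of 14, with a median log2 fold change of -0.51. Tnfaip3, the A20 inhibitor of NF-kB signalling, was at 71.7 and 93.0 TPM in the controls, against 47.1, 30.2 and 15.1 TPM in the knockout-labelled libraries 1, 2 and 3 (log2 fold change -1.52, limma adjusted p 0.237). Rel, an NF-kB subunit abundant in leukocytes, was at 25.2 and 30.6 TPM in the controls, against 13.6, 13.6 and 7.63 TPM in the others (log2 fold change -1.23, limma adjusted p 0.193). Heat shock genes, which encode stress-induced chaperones, were below 0 in 11 of 15, with a median of -0.19. Hsph1, a chaperone of the HSP110 family, was at 324 and 356 TPM in the controls, against 236, 163 and 186 TPM in the knockout-labelled libraries 1, 2 and 3 (log2 fold change -0.81, limma adjusted p 0.204). Hspa1a was at 1675 and 1711 TPM in the controls, against 1587, 865 and 815 TPM in the others (log2 fold change -0.70, limma adjusted p 0.394). Hspa1a and Hspa1b are near-identical copies whose reads can be exchanged, and their sum was 5291 and 5082 TPM in the controls and 5229, 2814 and 2586 TPM in the knockout-labelled libraries 1, 2 and 3. That sum was at the control level in the library labelled knockout 1 and below it in the other 2, as it was for Dusp1.

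**Figure D4:**
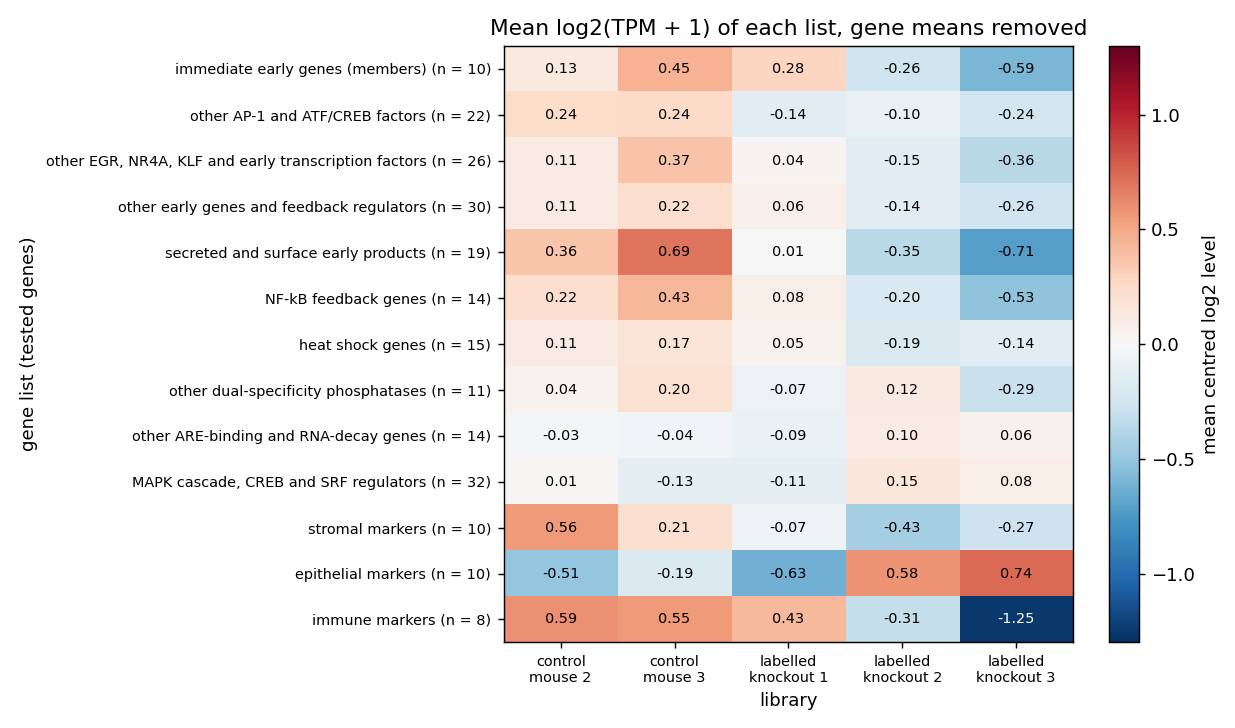
Mean log2(TPM + 1) of each gene list in each library after each gene's mean over the 5 libraries was removed, with n the tested genes of the list. The 10 immediate early genes are at 0.13 and 0.45 in the controls and at -0.26 and -0.59 in the knockout-labelled libraries 2 and 3, epithelial markers are at 0.58 and 0.74 in those 2, and immune markers at -0.31 and -1.25.

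Markers of other cells moved across the same libraries. Of 8 immune markers 8 lay below both controls in each of the knockout-labelled libraries 2 and 3 and 4 did in the first. Over all tested genes 53.9%, 32.6% and 44.3% lay below both controls in the knockout-labelled libraries 1, 2 and 3. The 4 of 8 in the first was thus near the share of all genes. The summed level of the immune markers was 4218 to 4554 TPM in controls and 1177 to 3522 TPM in the knockout-labelled libraries. Of 10 epithelial markers 9 lay above both controls in each of the knockout-labelled libraries 2 and 3 and none did in the first, with a summed level of 3028 to 3328 TPM in controls and 2156 to 13148 TPM in the others. The share of all tested genes above both controls is not given here. Of 7 mast cell markers 6 lay below both controls in all 3, as did 21.9% of all tested genes. Their sums were 325 to 388 TPM in controls and 103 to 128 TPM in the knockout-labelled libraries. Endothelial markers summed to 210.4 to 245 TPM in controls and 165 to 261 TPM in the others, smooth muscle markers to 394 to 594 TPM and 430.3 to 492 TPM, and mesothelial markers to 610.0 to 727 TPM and 366 to 568 TPM. No immune, epithelial or mast cell marker was at 0 in every library. Of 6 erythroid markers 4 were at 0 in every library and their sum did not exceed 8.33 TPM. In bulk RNA, fewer cells of a type and less RNA per cell cannot be told apart. The part of these cells, and of the non-coding RNAs Rpph1 and Rn45s, which took 13.9% to 23.3% of all TPM, in the levels of the 10 genes was not tested, apart from a rescaling without those 2 RNAs, in which their median log2 fold change was -0.55.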

How the data were processed

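RNA from YFP-positive oviduct stromal cells was measured in 5 libraries, each from 1 mouse. Per the labels' protocols, total RNA was extracted and libraries were made with a low-input SMARTer v4 mRNA kit. The authors deposited TPM per gene, which sum to 1000000 in each library; the name of the deposited table says STAR, and the submitters' processing notes name mm10. The STAR version, the counter, the annotation, the strand setting and read filters are not given in the sources used here. TPM holds no read numbers, so the depth is unknown and no counting intervals are given; the number of mice limits the precision. P-values measure the spread between these mice only.

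Groups and mouse numbers came from the labels. On log2(TPM + 1), each gene that reached 1 TPM in 2 or more libraries was fitted by limma 3.58.1 (R 4.3.3; eBayes with trend, group as the only term, two-sided), with Benjamini-Hochberg adjustment over all 19292 tested genes at 0.05. The function was tested on simulated data of the same design. It recovered 15% of 200 genes changed by a log2 fold change of 1, and 97% at 2. Lack of a call for a smaller difference therefore says little. All fold changes refer to log2(TPM + 1). Lists are described by counts and medians only. Named besides the 10 genes, Esr1 and Pdgfra are list genes past the threshold, in each list the 2 genes with the largest fold change among those at a mean of 5 TPM whose groups do not overlap, and the 5 genes nearest in profile; 1 gene that this rule names is not reported here. The 10 genes and all lists were chosen with earlier results of these data known. The effects of 17 alternatives are given in the closing section. Promoters came from the RefSeq table of GRCm38.p6, gene overlaps from GENCODE M21. Tables and plots used Python 3.11.15, pandas 2.3.3, numpy 2.4.6 and matplotlib 3.10.9.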

Additional observations from a re-analysis of the deposited data

How the results depend on the processing

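The median log2 fold change of the 10 genes, -0.49, stayed below 0 in each alternative tried, between -0.75 and -0.26. The ends come from leaving out the library labelled knockout 1 or 3. The replicate block, in which the first has no partner, repeats the fit without it at -0.75. Without control mouse 3 it was -0.32. Fits with a single control assume that it varies like the others.

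Of the 10 genes none was called in either direction. Library weights called 1 lower (Atf3, limma adjusted p 0.0492), and leaving out single libraries called 0 to 2 lower, Atf3 and Dusp1 without the library labelled knockout 1. Of 170 alternative values for the 10 genes, 161 kept their direction and side of the threshold, 5 came to pass it and 4 changed sign. Ier2 was -0.014 with library weights and -0.094 with the replicate block, and ranged from -0.094 to 0.25 when single libraries were left out; Ier3 ranged from -0.34 to 0.035. Of 527 values for other named genes 9 changed sign. Esr1 was 0.15 with library weights and 0.57 with the block (range without single libraries -0.68 to 0.57), Pdgfra -0.074 with the block (range -0.074 to 0.35), and Jund 0.027 with median-of-ratios scaling (range -0.12 to 0.050).

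Over all genes, 2 were called higher and 3 lower. A pseudocount of 0.1 gave 0 of each (2233 genes had an unadjusted p under 0.05) and one of 5 gave 2 higher and 4 lower. No genes were called on requiring a mean of 5 TPM (1389 genes had an unadjusted p under 0.05). Higher calls fell to 1 with robust eBayes or no low-value filter. They fell to 0 with quantile normalization (2573 genes unadjusted), with scaling by the median of ratios (3000) and with eBayes lacking the trend (2800). Dropping Rpph1 and Rn45s gave 5 lower. Library weights gave 260 higher and 396 lower, and a threshold of 0.1 gave 14 and 22. Leaving out single libraries gave 0 to 1022 higher and 0 to 502 lower, with 1032 to 5603 genes unadjusted. The cause was not tested.

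Using the mouse number as a replicate block called 1165 genes higher, 693 lower, and 2 of the 10 lower, Atf3 and Dusp1 (limma, adjusted p 0.0174 and 0.0127). The library labelled knockout 1 has no partner there, so the fold changes equal those of the fit without it (-1.10 for Atf3 and -1.18 for Dusp1). The block is therefore not a separate check. Same-numbered mice deviated from their group means with correlations of -0.060 and -0.072 across genes. With 2 controls, whose deviations mirror each other, the differently numbered pairs gave 0.060 and 0.072. These values cannot tell whether same-numbered mice share more than a number. TPM does not show read depth, so a limit set by depth could not be seen.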
